A study of Mus musculus with 4 samples.

Results

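The interferon-stimulated genes are the genes that cells switch on when a type I interferon (interferon-alpha or interferon-beta) binds its receptor. A list of 40 such mouse genes was followed here in a pair of CD8+ T cell cultures, Tc17 cells and conventional cytotoxic T lymphocytes (CTL). This list and the other gene lists below were chosen with earlier results of these data known. Their shares beside all genes are therefore descriptions and not independent support. A gene was included when the platform annotation named it alone on at least 1 probe set, and where it had several, the brightest on average across the arrays stood for it. This held for 36 of the 40 genes, and for 19938 genes on the array as a whole. All 36 were also among the 14953 genes bright enough to be tested. A further 3 (Oas1g, Isg15 and Ifi47) were found only on probe sets that carry another gene's name as well, and Ifi44 was not analysed here.

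The Tc17 group comprised 2 arrays of CD8+ T cells from wild-type C57BL/6 mice cultured for 2 days with IL-2, IL-6, TGF-beta and an antibody against IFN-gamma. The CTL group comprised 2 arrays of CD8+ T cells of the same strain and genotype cultured for 2 days with IL-2 and the same antibody, without IL-6 and TGF-beta. Cells of both groups had been drawn from spleen and lymph node by magnetic negative selection. The study's methods add stimulation through CD3 and CD28 for Tc17 cells and do not state it for CTL. The neutralising antibody to IFN-gamma, the type II interferon, was thus common to all 4 cultures, and none of the 4 had added interferon or a blocked type I receptor by its labels. The labels call the arrays biological replicates but give no origin in separate mice or cultures. The p-values therefore measure only the spread among these 4 samples, which may be technical. The test used, limma, draws each gene's variance toward that of all genes tested (8.98 prior against 2 residual degrees of freedom). For a gene whose arrays spread widely, the SE is thus smaller than its own arrays alone would give. The 36 genes spread more between replicates than all genes tested did. Their median absolute replicate difference was 0.22 in Tc17 and 0.30 in CTL, against 0.14 over all genes in either group.

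In the canonical pathway, type I interferon binds the IFNAR1 and IFNAR2 receptor chains and the kinases JAK1 and TYK2 activate the factor ISGF3. This factor, which contains STAT2 and IRF9, binds the interferon-stimulated response element (ISRE) in the promoters of its target genes. The products sense foreign RNA, block translation, degrade or edit RNA, tag proteins with the ubiquitin-like protein ISG15 or hold virus particles at the membrane, and some, such as USP18, switch the receptor off again. IFN-gamma acts chiefly through a different promoter element, the GAS, and many genes respond to both interferons.

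A match to an ISRE-like sequence was looked for in the RefSeq promoter windows (assembly GRCm38.p6) of the listed genes, each running from 250 bases before to 50 bases after a transcription start. Windows were on hand for 31 of the 40 genes. The pattern was GAAANNGAAA on either strand, where N is any base. It was present in 13 of the 31 genes (41.9%), against 3.99% of all 27025 genes with a window. The sequences below are shown because they are the upstream elements of genes whose levels are described next. Each is written 5′ to 3′ on the strand of the gene, with each match, or its reverse complement, in capitals, and neighbouring matches that overlap run together.
Ifit1 (chr19:34640773-34640825, plus strand): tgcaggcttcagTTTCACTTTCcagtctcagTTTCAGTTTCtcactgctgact
Ifit3 (chr19:34583361-34583428, plus strand): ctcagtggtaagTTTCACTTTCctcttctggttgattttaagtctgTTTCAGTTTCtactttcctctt
Oas3 (chr5:120777713-120777746, minus strand): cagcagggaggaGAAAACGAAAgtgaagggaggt
Rsad2 (chr12:26456551-26456584, minus strand): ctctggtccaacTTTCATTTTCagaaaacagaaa
Bst2 (chr8:71537575-71537614, minus strand): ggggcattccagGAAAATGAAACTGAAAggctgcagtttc
Isg15 (chr4:156200863-156200908, minus strand): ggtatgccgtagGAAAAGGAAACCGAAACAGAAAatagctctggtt
The matches began 104 bases before the start in Ifit1, 156 in Ifit3, 75 in Oas3, 120 in Rsad2, 130 in Bst2 and 78 in Isg15. A match is a description of the letters and not evidence that a factor binds there.

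The interferon-stimulated genes were lower in Tc17 cells than in CTL, in a list chosen with earlier results of these data known. Of the 36 genes, 26 (72.2%) were lower at an adjusted p under 0.05 in limma's moderated test, against 7.44% of all genes tested, and 0 were higher, against 8.22% of all genes tested. The median of their Tc17 minus CTL differences was -0.91 on the log2 scale, against 0.02 over all genes tested. By sign alone, 33 of the 36 were lower in Tc17 (91.7%, against 46.4% of all genes tested). A decrease of at least 2-fold that passed the test was seen in 16 of them (44.4%), against 1.19% of all genes. Both Tc17 arrays lay below both CTL arrays in 28 genes (77.8%), against 24.8% of all genes, and above them in 1 (Dtx3l), against 29.6%. The median level of the 36 genes was 4.03 and 4.23 on the Tc17 arrays and 5.39 and 5.23 on the CTL arrays. In bulk RNA, fewer cells that express a gene and less RNA per cell cannot be told apart.

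**Figure D1:**
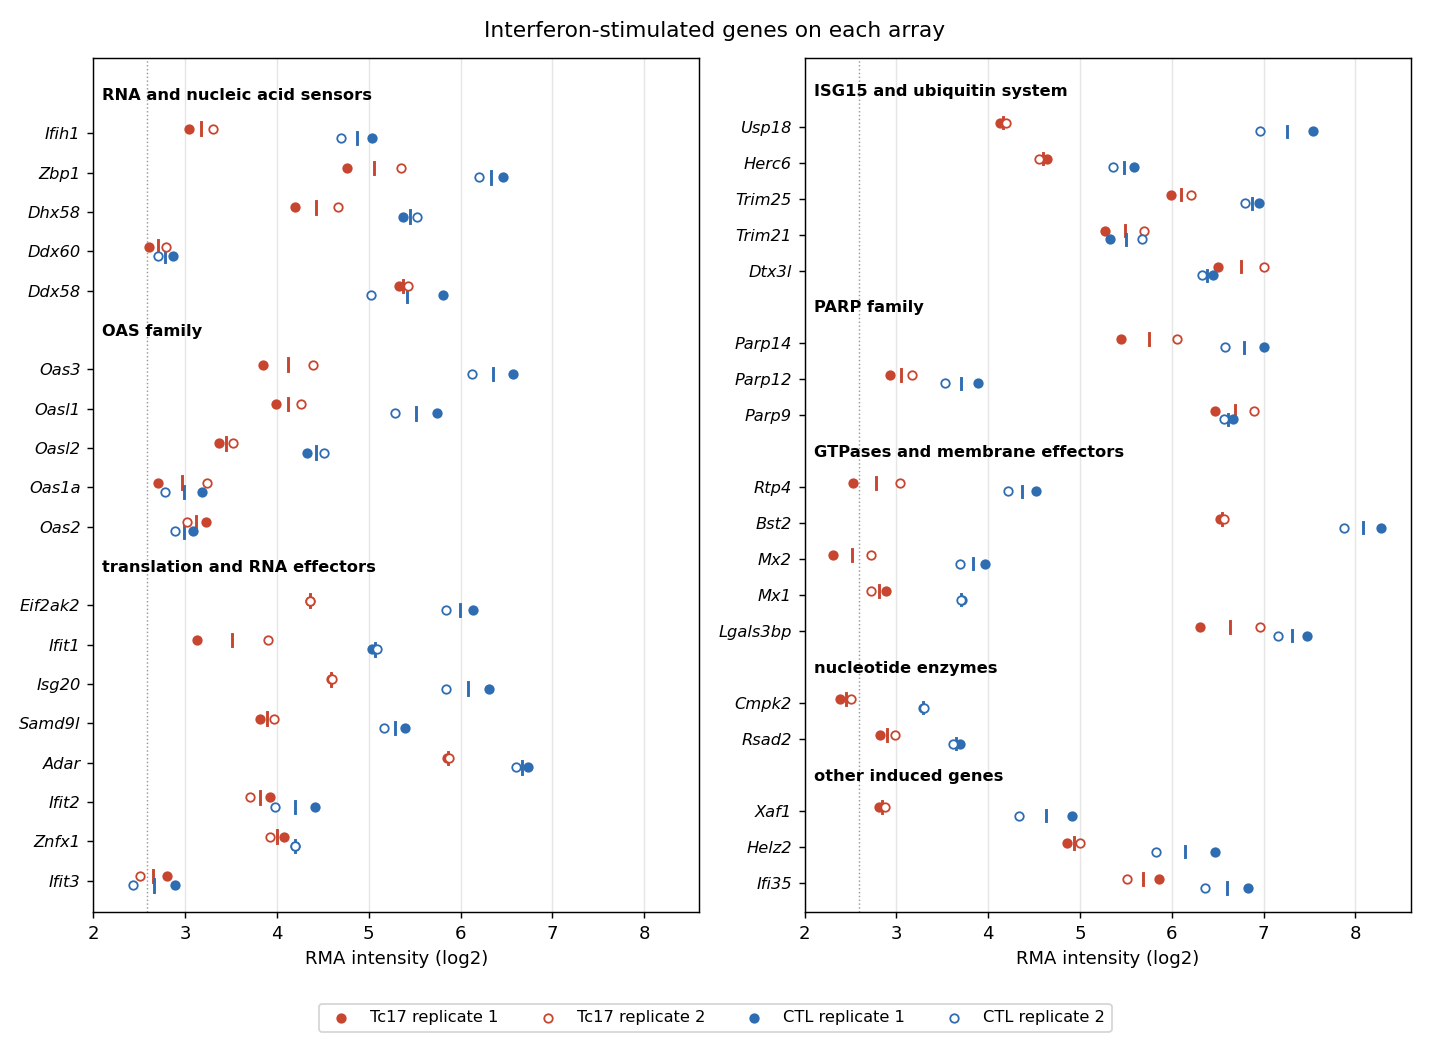
RMA intensity (log2, x axis) of the 36 interferon-stimulated genes on each array, grouped by role and, within a role, ordered by the difference. Filled and open circles are replicates 1 and 2, vertical ticks are group means of 2 arrays, red is Tc17, blue is CTL, and the dotted line is the level of 2.59 below which a gene's mean over the 4 arrays was not tested. Usp18 has the widest gap between the groups, and the groups overlap at Ifit3, Oas1a, Oas2, Ddx58, Ddx60, Parp9 and Trim21.

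The largest decrease was that of Usp18, the protease that removes ISG15 from proteins and also blocks signalling at the IFNAR2 chain. Usp18 read 4.12 and 4.19 on the Tc17 arrays, against 7.53 and 6.97 on the CTL arrays. It was 8.52-fold lower in Tc17 (-3.09 ± 0.17 on the log2 scale, SE, adjusted p = 8.85e-07, limma), which ranked 4 among the decreases of all genes tested. The gap was several times the spread within either group.

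Other genes of ISG15 conjugation and of the ubiquitin system were divided. Herc6, which attaches ISG15 to proteins in the mouse, read 4.64 and 4.55 in Tc17, against 5.59 and 5.36 in CTL (-0.88 ± 0.14, SE, adjusted p = 0.00125, limma). Trim25, the ubiquitin ligase that helps to activate RIG-I, read 5.99 and 6.20 in Tc17, against 6.95 and 6.79 in CTL (-0.77 ± 0.14, SE, adjusted p = 0.00273, limma). Neither gene's groups overlapped. Trim21, a cytosolic antibody receptor and ubiquitin ligase, read 5.28 and 5.70 in Tc17, against 5.32 and 5.67 in CTL, and these values overlapped. Dtx3l, the ubiquitin ligase partner of PARP9, read 6.50 and 7.00 in Tc17, against 6.45 and 6.33 in CTL (0.37 ± 0.17, SE, adjusted p = 0.182, limma). Dtx3l was the 1 gene with both Tc17 arrays above both CTL arrays, and it passed the threshold as higher when Tc17 replicate 1 was left out (0.62, adjusted p = 0.0288). Isg15 itself shared its only probe set with Gm9706. That probe set read 3.44 and 3.35 in Tc17, against 4.89 and 4.57 in CTL, a difference of -1.34 that belongs to neither gene alone and was not counted.

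Among the sensors of foreign nucleic acids, 3 of 5 were lower (60%, against 7.44% of all genes tested). Ifih1, which encodes the RNA helicase MDA5, read 3.04 and 3.31 in Tc17, against 5.04 and 4.70 in CTL (-1.69 ± 0.15, SE, adjusted p = 3.60e-05, limma). Zbp1, the Z-form nucleic acid sensor that can start necroptosis, read 4.76 and 5.35 in Tc17, against 6.47 and 6.20 in CTL, 2.42-fold lower. Dhx58, which encodes LGP2, a helicase that tunes MDA5 and RIG-I, read 4.19 and 4.67 in Tc17, against 5.38 and 5.52 in CTL, 2.03-fold lower. All 3 had every Tc17 array below every CTL array.

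Ddx58, which encodes RIG-I, did not share this difference. It read 5.33 and 5.42 in Tc17, inside the range of the CTL arrays at 5.81 and 5.02 (-0.04 ± 0.21, SE, adjusted p = 0.943, limma). Its CTL arrays were 0.78 apart, more than those of any other of the 36 genes. Ddx60, a helicase reported to assist RIG-I, read 2.61 and 2.80 in Tc17, against 2.87 and 2.70 in CTL, close to the bottom of the array's range.

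The oligoadenylate synthetases make the messenger that activates RNase L, and the OAS-like proteins belong to the same family. Oas3 read 3.85 and 4.39 in Tc17, against 6.57 and 6.13 in CTL. It was 4.69-fold lower (-2.23 ± 0.20, SE, adjusted p = 2.82e-05, limma), the second largest decrease of the 36 genes. Oasl1, which in the mouse restrains translation of Irf7, read 3.99 and 4.26 in Tc17, against 5.74 and 5.29 in CTL (-1.39 ± 0.17, SE). Oasl2 read 3.37 and 3.52 in Tc17, against 4.32 and 4.52 in CTL (-0.98 ± 0.14, SE). Both decreases passed the test, with adjusted p of 2.43e-04 for Oasl1 and 6.20e-04 for Oasl2 (limma).

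Oas1a and Oas2 did not pass. Oas1a read 2.71 and 3.24 in Tc17, against 3.19 and 2.78 in CTL, and Oas2 read 3.23 and 3.02 in Tc17, against 3.09 and 2.89 in CTL. The probe set that names Oas1a and Oas1g together read 3.23 and 3.31 in Tc17, against 3.32 and 3.47 in CTL. All of these sit at about the median of the whole array (3.18 to 3.20), where intensity follows abundance poorly, so the absence of a difference there cannot be read as equal expression.

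Of the genes that act on translation and on RNA, 5 of 8 were lower (62.5%, against 7.44% of all genes tested). Eif2ak2, which encodes PKR, the kinase that stops translation on sensing foreign RNA, read 4.36 on both Tc17 arrays, against 6.14 and 5.84 in CTL (-1.63 ± 0.14, SE, adjusted p = 2.30e-05, limma). Ifit1, whose product binds RNA that lacks a host-type cap, read 3.13 and 3.91 in Tc17, against 5.04 and 5.09 in CTL (-1.55 ± 0.21, SE, adjusted p = 5.16e-04, limma). The Tc17 arrays differed in Ifit1 by 0.78, the widest such gap of the 36 genes, yet both stayed more than 1 log2 unit below CTL.

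Isg20, an RNA exonuclease, read 4.59 and 4.60 in Tc17, against 6.31 and 5.84 in CTL, 2.80-fold lower. Samd9l, a restriction factor and growth suppressor, read 3.81 and 3.97 in Tc17, against 5.40 and 5.17 in CTL, 2.63-fold lower. Adar, which edits adenosine to inosine in RNA duplexes, read 5.85 and 5.88 in Tc17, against 6.74 and 6.60 in CTL, 1.75-fold lower. The Tc17 arrays thus lay close together in Eif2ak2, Isg20 and Adar, and the CTL arrays further apart.

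The neighbours of Ifit1 did not pass the test. Both Tc17 arrays of Ifit2 lay below both CTL arrays, as in Ifit1. Ifit3 was too dim for its lack of a difference to be read as equal expression. Ifit2 read 3.93 and 3.71 in Tc17, against 4.42 and 3.98 in CTL, a difference of -0.38 ± 0.16 (SE) that did not pass (adjusted p = 0.157, limma) but did when CTL replicate 2 was left out (-0.60, adjusted p = 0.0452). Ifit3 read 2.80 and 2.51 in Tc17, against 2.89 and 2.44 in CTL, at the bottom of the range in both. Znfx1, an RNA helicase of the antiviral response, read 4.08 and 3.93 in Tc17, against 4.19 and 4.20 in CTL (-0.19 ± 0.13, SE, adjusted p = 0.394, limma).

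All 5 genes for membrane-associated or secreted antiviral proteins and Mx GTPases were lower in Tc17, against 7.44% of all genes tested. Bst2, which encodes tetherin, the protein that holds budding virus on the cell surface, read 6.52 and 6.57 in Tc17, against 8.28 and 7.88 in CTL (-1.53 ± 0.15, SE, adjusted p = 6.10e-05, limma). Rtp4, a receptor transporter that also limits virus growth, read 2.53 and 3.04 in Tc17, against 4.52 and 4.22 in CTL (-1.59 ± 0.18, SE). Lgals3bp, a secreted galectin-binding glycoprotein, read 6.30 and 6.96 in Tc17, against 7.47 and 7.16 in CTL (-0.68 ± 0.20, SE, adjusted p = 0.0399, limma). The Lgals3bp call was the least secure of the 26, and it was lost without Tc17 replicate 1 (-0.35, adjusted p = 0.257) and without CTL replicate 1 (-0.53, adjusted p = 0.212).

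The Mx GTPases are inactive as proteins in most laboratory mouse strains, but their transcripts are still a standard readout of interferon. Mx2 read 2.31 and 2.73 in Tc17, against 3.96 and 3.70 in CTL, 2.49-fold lower. Mx1 read 2.89 and 2.72 in Tc17, against 3.71 and 3.70 in CTL, 1.87-fold lower. Neither gene's groups overlapped. The Tc17 level of Mx2 was below the dimness limit of 2.59, so its fold change was compressed to an unknown degree. The probe set naming both Olfr56 and Ifi47, an immunity-related GTPase, read 5.19 and 5.52 in Tc17, against 5.38 and 5.35 in CTL, and these overlapped.

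The genes for nucleotide-modifying enzymes lie next to each other in the genome and were both low. Rsad2, which encodes viperin, the maker of a chain-terminating nucleotide, read 2.82 and 2.99 in Tc17, against 3.69 and 3.61 in CTL (-0.75 ± 0.13, SE, adjusted p = 0.00260, limma). Cmpk2, a mitochondrial nucleotide kinase, read 2.39 and 2.51 in Tc17, against 3.29 and 3.30 in CTL (-0.85 ± 0.13, SE, adjusted p = 0.00101, limma). These differences were larger than the spread between replicates, although the Tc17 levels were below the median of the array. Both Tc17 arrays of Cmpk2 also lay below the dimness limit, so its difference was compressed to an unknown degree. A Tc17 mean under that limit was seen in 2 of the 26 lower genes, Mx2 and Cmpk2. Their means over all arrays passed the filter only through their CTL levels. The Tc17 means of Mx1, Rsad2, Rtp4, Ifih1, Parp12 and Xaf1 lay above that limit but under the lowest array median.

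The interferon-induced ADP-ribosyltransferases did not move as a unit. Parp14, a macrodomain protein, read 5.45 and 6.06 in Tc17, against 7.00 and 6.58 in CTL, 2.05-fold lower (adjusted p = 0.00483, limma). Parp12, which restrains translation, read 2.93 and 3.17 in Tc17, against 3.89 and 3.53 in CTL, 1.58-fold lower (adjusted p = 0.0140, limma). The Parp12 call was lost without Tc17 replicate 1 (-0.54, adjusted p = 0.0849) and without CTL replicate 1 (-0.48, adjusted p = 0.113). Parp9, which works in a complex with DTX3L, read 6.47 and 6.90 in Tc17, against 6.67 and 6.56 in CTL, and these overlapped (0.07 ± 0.16, SE, adjusted p = 0.851, limma). Neither partner of that complex passed the test.

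All 3 remaining genes were lower, against 7.44% of all genes tested. Xaf1, which counters the apoptosis inhibitor XIAP, read 2.81 and 2.88 in Tc17, against 4.91 and 4.34 in CTL (-1.78 ± 0.18, SE, adjusted p = 6.10e-05, limma). Helz2, a nuclear helicase coactivator, read 4.86 and 5.0 in Tc17, against 6.47 and 5.82 in CTL, 2.32-fold lower. Ifi35, a leucine zipper protein of the interferon response, read 5.86 and 5.51 in Tc17, against 6.83 and 6.37 in CTL, 1.89-fold lower.

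The 10 genes that did not pass had differences from -0.38 to 0.37, and the 26 that did from -3.09 to -0.66. Both group means of Ifit3, Oas1a, Oas2 and Ddx60 lay under the lowest array median of 3.18, so 4 of those 10 were measured only near background. The other 6 (Ifit2, Ddx58, Parp9, Dtx3l, Trim21 and Znfx1) were not. Among the lower genes, the Tc17 means of Mx1, Mx2, Rsad2, Rtp4, Ifih1, Parp12, Xaf1 and Cmpk2 also lay under 3.18. Their CTL means lay above it, so their differences may be compressed to an unknown degree. Of the genes with a promoter window, an ISRE-like match was present in 6 of 19 that were lower (31.6%) and in 5 of 8 that did not pass (62.5%), among them Ddx58 and Trim21. A GAS-like match (TTCNNNGAA) was present in 7 of 31 (22.6%), against 9.55% of all genes with a window, and that of Bst2 overlapped an ISRE-like match. The other ISRE-like matches among the genes that did not pass were those of Ifit3, Oas1a and Ddx60, measured only near background. No window was searched for lower genes such as Usp18, Mx1 and Mx2. Counts this small cannot decide whether the motif in this window separates the genes that were lower from those that did not pass.

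**Figure D2:**
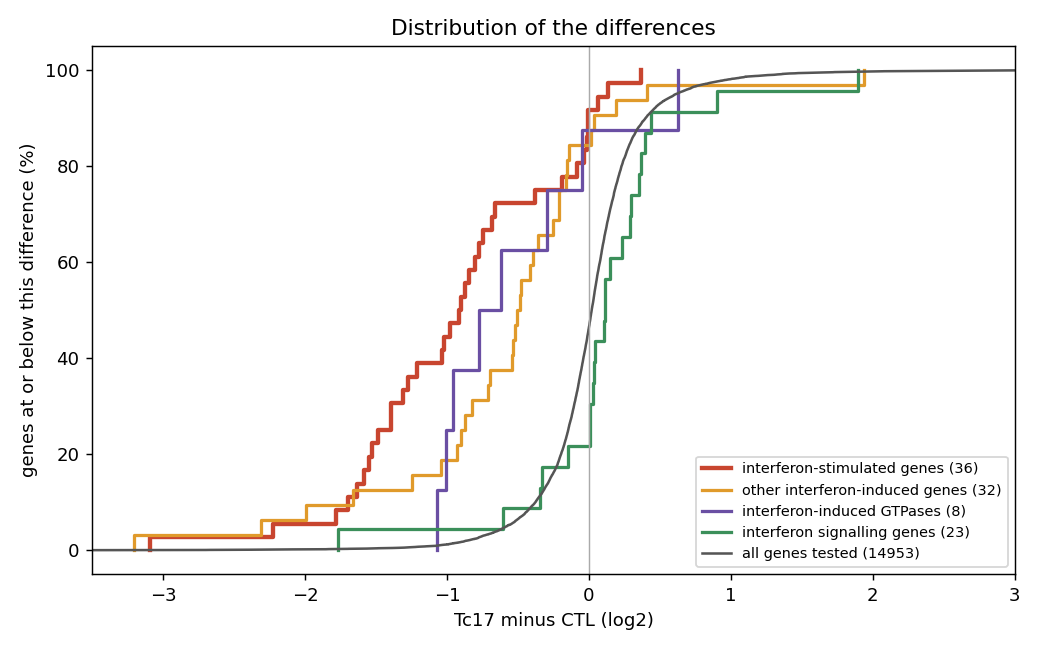
Cumulative share of genes (%, y axis) at or below each Tc17 minus CTL difference (log2, x axis), for the 36 interferon-stimulated genes, 32 other interferon-induced genes, 8 interferon-induced GTPases, 23 signalling genes and all 14953 genes tested, whose tails run past the axis. The curve of the interferon-stimulated genes lies left of that of all genes, with medians of -0.91 and 0.02, and the signalling genes, with a median of 0.11, do not follow it.

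The genes that carry the interferon signal were compared in the same fit, from a list of 30 of which 23 were tested. Their median difference was 0.11. Of the 23, 2 were lower (8.7%, against 7.44% of all genes tested) and 2 higher (8.7%, against 8.22%), close to the shares over all genes. Irf7, the factor that amplifies interferon production and is itself induced by interferon, read 3.56 and 5.01 in Tc17, against 6.30 and 5.82 in CTL (-1.77 ± 0.35, SE, adjusted p = 0.00526, limma). The Tc17 arrays disagreed on its level by 1.45, the difference was -1.05 without Tc17 replicate 1, and under intensity-trended robust moderation the adjusted p was 0.0775. Socs3, an inhibitor induced by IL-6, read 7.51 and 7.65 in Tc17, against 5.87 and 5.50 in CTL, 3.72-fold higher (1.89 on the log2 scale, adjusted p = 1.42e-05, limma), or 1.13 when its probe sets were averaged. Jak1 read 8.96 and 9.03 in Tc17, against 8.11 and 8.09 in CTL, 1.87-fold higher (adjusted p = 6.45e-04, limma).

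The receptor chains did not pass. Ifnar1 read 6.68 and 6.48 in Tc17, against 6.51 and 6.56 in CTL, with a difference of 0.05 ± 0.13 (SE), and Ifnar2 read 6.58 and 6.66 in Tc17, against 6.30 and 6.47 in CTL, with a difference of 0.23 ± 0.13 (SE). Of the ISGF3 subunits measured, Stat2 read 6.27 and 6.48 in Tc17, against 6.94 and 6.50 in CTL (-0.35 ± 0.16, SE, adjusted p = 0.196, limma). Irf9 read 5.80 and 6.18 in Tc17, against 6.04 and 5.92 in CTL (0.01 ± 0.15, SE, adjusted p = 0.982, limma). These transcripts were thus measured at mid-range levels in both groups without a difference past the threshold.

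Tyk2, Irf1, Irf2, Irf3, Irf5, the adaptor Mavs, the kinases Tbk1 and Ikbke, and the inhibitors Socs1, Irf2bp2, Ptpn2 and Ptpn6 did not pass either, with differences from -0.33 for Irf5 to 0.40 for Irf1. Irf1 passed as higher without Tc17 replicate 1 (0.70, adjusted p = 0.0155). Among the interferon genes themselves, Ifna2 read 2.80 and 2.64 in Tc17, against 3.23 and 3.42 in CTL (-0.60 ± 0.14, SE, adjusted p = 0.0109, limma). It lost that call without Tc17 replicate 2 (-0.52, adjusted p = 0.0814) and without CTL replicate 2 (-0.51, adjusted p = 0.0769). Ifna5, Ifne and Ifnz did not pass (Ifnz passed as higher without Tc17 replicate 2, 0.62, adjusted p = 0.0359), and Ifnb1, Ifna4 and Ifnk were too dim to test, with means over the 4 arrays under 2.59.

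**Figure D3:**
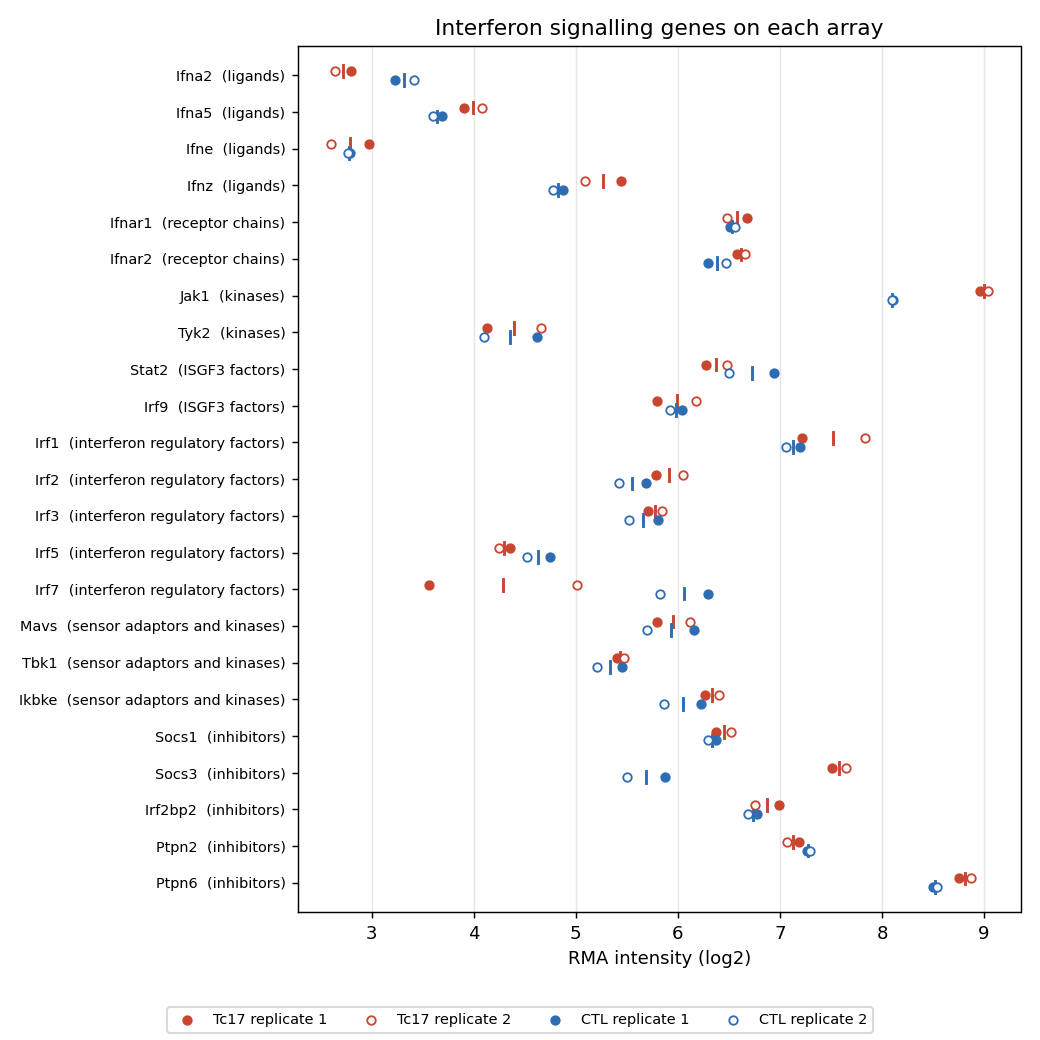
RMA intensity (log2, x axis) of the 23 signalling genes tested, on each array, ordered by role from the interferon genes at the top to the inhibitors at the bottom. Filled and open circles are replicates 1 and 2, ticks are means of 2 arrays, red is Tc17 and blue is CTL. Irf7 and Socs3 are set furthest apart, in opposite directions, while Ifnar1, Ifnar2, Stat2 and Irf9 lie close together.

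Of 38 interferon-induced genes outside the list of 40, 32 were tested. Of these, 14 were lower (43.8%, against 7.44% of all genes tested) and 1 was higher (3.12%, against 8.22%). The other 17 did not pass, and the median of the 32 was -0.50. The largest decreases were those of the chemokine Ccl5 (4.55 and 4.79 in Tc17, against 8.09 and 7.67 in CTL, 9.24-fold lower), of the TRIM family gene Trim30d (3.74 and 4.17, against 6.59 and 5.93, 4.97-fold lower) and of the chemokine Cxcl10 (3.53 and 3.64, against 5.82 and 5.33, 3.98-fold lower). The 1 increase was that of Ifitm1, which encodes a membrane protein that restricts virus entry (6.10 and 5.99 in Tc17, against 4.45 and 3.76 in CTL, 3.83-fold higher). Ccl5 is also a product of cytotoxic T cells in its own right, and Ifitm1 stands apart from its neighbours Ifitm2 and Ifitm3, which did not pass (Ifitm3 passed as lower without CTL replicate 2, -1.05, adjusted p = 0.00209).

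Of 15 GTPases induced chiefly by IFN-gamma, 8 were tested, with a median of -0.70. Of the 8, 3 were lower (37.5%, against 7.44% of all genes tested) and 1 was higher (12.5%, against 8.22%). Gbp9, at 4.36 and 4.55 in Tc17, against 5.40 and 5.52 in CTL, was 2.01-fold lower. Gbp4, at 6.00 and 6.55 in Tc17, against 7.06 and 7.05 in CTL, was 1.71-fold lower, a call lost without Tc17 replicate 1 (-0.50, adjusted p = 0.0664). Gbp7 (-1.07) was lower and Gbp3 (0.63) higher, but Gbp7 lost its call without Tc17 replicate 1 (-0.45), CTL replicate 1 (-1.0) or CTL replicate 2 (-1.14), and read -1.69 without Tc17 replicate 2. Gbp3 lost its call without Tc17 replicate 2 (0.31), CTL replicate 1 (0.67) or CTL replicate 2 (0.59), and read 0.96 without Tc17 replicate 1. Only Gbp9 kept its call in all 4 fits that left out 1 array.

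Within a group, the arrays also differed from each other in many of the 36 genes, and in opposite senses in the Tc17 and CTL groups. In Tc17, replicate 2 was above replicate 1 in 29 of the 36 genes (80.6%, against 45.1% of all genes tested), with a median difference of 0.16, against -0.02 over all genes tested. In CTL, replicate 2 was below replicate 1 in 30 of the 36 (83.3%, against 54% of all genes tested), with a median of -0.28, against -0.02 over all genes. There is 1 array on each side of these differences, so they carry no test, and the numbers 1 and 2 in one group have no stated link to those in the other.

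Differences of at least 0.5 were seen in 8 of the 36 genes with Tc17 replicate 2 above replicate 1 (22.2%, against 1.25% of all genes), and in 0 below (against 1.73%). The 8 were Ifit1, Oas1a, Oas3, Rtp4, Parp14, Dtx3l, Zbp1 and Lgals3bp. In CTL, 4 genes were lower by as much in replicate 2 (11.1%, against 2.13% of all genes) and 0 were higher (against 1.15%). These 4 were Usp18, Ddx58, Xaf1 and Helz2, and no gene was in both sets.

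The same 1-against-1 comparison in Tc17 reached further in genes outside the list, named here after their values were seen. Iigp1, an immunity-related GTPase, read 3.05 and 5.19 in Tc17, against 5.19 and 4.96 in CTL. Its replicate difference of 2.15 in Tc17 ranked 1 of all genes tested, Irf7 (1.45) ranked 2 and Gbp7 (1.24) ranked 3. All 8 GTPases tested were higher in Tc17 replicate 2, with a median of 0.73, against -0.08 in CTL. Over all genes the arrays of a group were alike, with Pearson's r of 0.993 across genes in either group, against 0.967 to 0.973 between groups.

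The difference between Tc17 and CTL was present with either array of a group. For each of the 4 ways to set 1 Tc17 array against 1 CTL array, the median over the 36 genes lay between -0.97 and -0.81. Of the 26 lower genes, 24 were called in each of the 4 fits that left out 1 array, with Lgals3bp and Parp12 as the exceptions. For Iigp1, by contrast, the difference of -0.96 did not pass, and without Tc17 replicate 2 it was -2.03 (adjusted p = 1.89e-05) and without Tc17 replicate 1 it was 0.12.

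**Figure D4:**
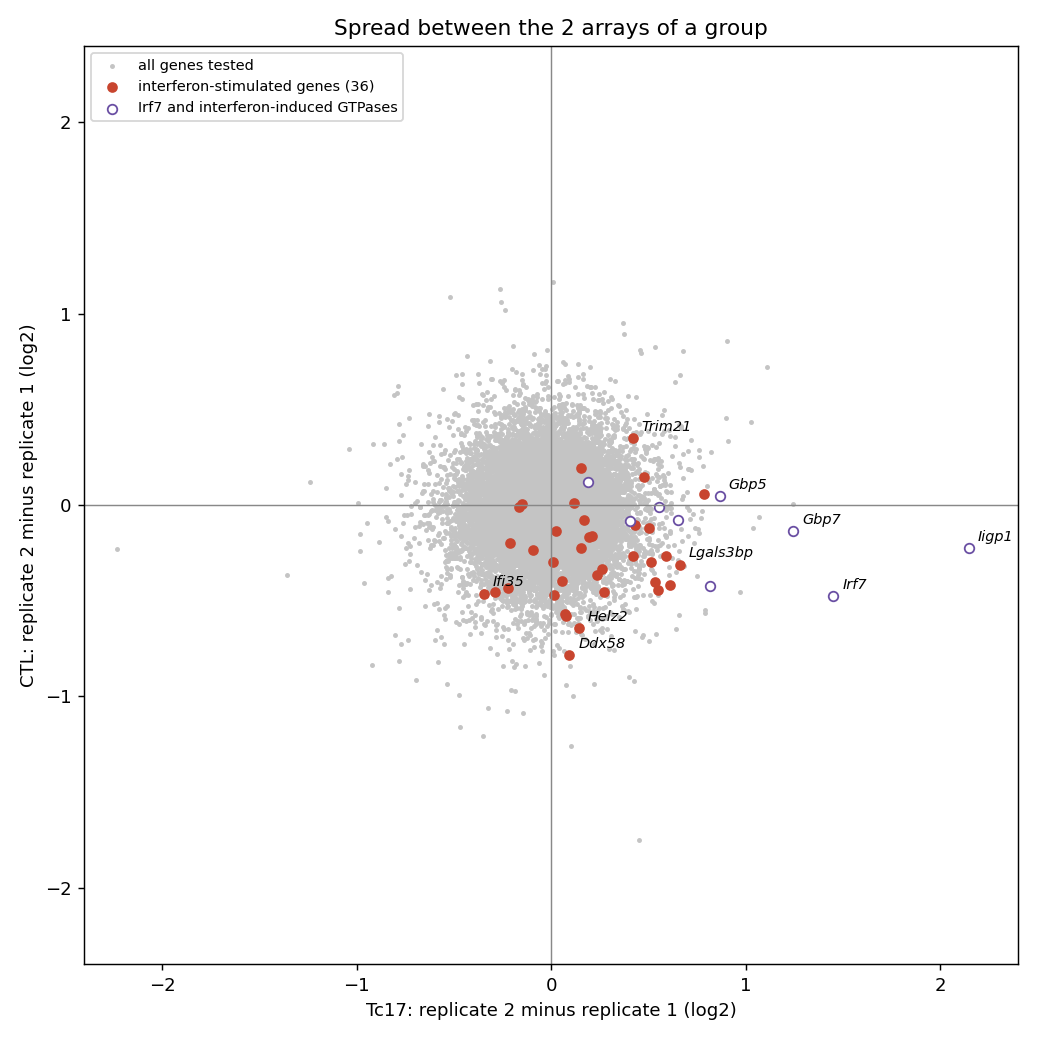
Difference between the 2 arrays of a group (log2) for each gene tested, with Tc17 replicate 2 minus replicate 1 on the x axis and CTL replicate 2 minus replicate 1 on the y axis. Grey points are all genes, red points the 36 interferon-stimulated genes and open circles Irf7 and the 8 GTPases. Of the 36 genes, 24 fall in the lower right (that is, above in Tc17 replicate 2 and below in CTL replicate 2, 66.7%, against 24% of all genes). Iigp1, Irf7 and Gbp7 lie furthest right. Which corner holds the genes depends on the replicate numbers, which have no stated link between the groups.

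Several other measurements moved alongside. The type 17 cytokine genes Il17a (6.41 and 6.21 in Tc17, against 4.09 and 3.74 in CTL) and Il17f (9.22 and 8.70, against 2.94 and 3.35) were higher in Tc17, and the cytotoxic genes Ifng (5.91 and 6.24, against 10.57 and 10.08) and Gzmb (9.30 and 9.19, against 11.58 and 11.56) were lower. Ifng encodes IFN-gamma, which shares many target genes with type I interferon. Ifng was 19.04-fold lower in Tc17, which ranked 1 among the decreases of all genes tested. All cultures held an antibody against IFN-gamma, but how fully it neutralised IFN-gamma in either group was not measured here. The part of IFN-gamma in the differences was not tested. The T cell genes were measured on all arrays, and 2 of 3 were higher in Tc17. Cd3e read 8.78 and 8.98 in Tc17, against 7.96 and 8.07 in CTL, 1.82-fold higher (adjusted p = 0.00127, limma), and Cd8a 9.999 and 10.08, against 9.21 and 9.53, 1.59-fold higher (adjusted p = 0.00838, limma). Cd8b1 read 9.33 and 9.28 in Tc17, against 9.12 and 9.08 in CTL, and did not pass.

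Cell types that make or answer to interferon were looked for by their markers. All 3 NK cell markers and 6 of 7 monocyte and macrophage markers read under 3.18 on every array. The brightest of these lists by mean over the 4 arrays were Ncr1 (2.28 and 2.03 in Tc17, against 2.31 and 2.59 in CTL) and Marco (3.23 and 3.16, against 3.10 and 2.99). The NK cell list averaged 2.05 to 2.12 in Tc17, against 2.17 to 2.31 in CTL, and the monocyte and macrophage list 2.61 to 2.70 in Tc17, against 2.65 to 2.73 in CTL. Of 4 plasmacytoid dendritic cell markers 2 read under 3.18 on every array, Siglech among them at 2.66 and 2.54 in Tc17, against 2.52 and 2.31 in CTL, and the list averaged 3.29 to 3.38 in Tc17, against 3.17 on both CTL arrays. The brightest of that list, Pacsin1, read 4.96 and 5.05 in Tc17, against 4.42 and 4.33 in CTL (higher, adjusted p = 0.00612, limma).

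Of 6 dendritic cell markers, 2 read under 3.18 on every array, and the list averaged 3.86 on both Tc17 arrays, against 3.64 to 3.99 in CTL. H2-Ab1, its brightest, read 7.11 and 7.40 in Tc17, against 6.44 and 5.97 in CTL, opposite in direction to the interferon-stimulated genes, while Cd74, the invariant chain gene, read 3.66 and 3.53 in Tc17, against 4.97 and 4.13 in CTL, and was lower (adjusted p = 0.0127, limma). Of 5 B cell markers measured, 2 read under 3.18 throughout, and the list averaged 3.32 to 3.34 in Tc17, against 3.13 to 3.37 in CTL. Its highest, Cd79b, read 5.14 and 5.02 in Tc17, against 4.78 and 4.53 in CTL. Among 4 CD4 T cell markers, which averaged 3.41 to 3.55 in Tc17, against 3.42 to 3.52 in CTL, Zbtb7b read 4.53 and 4.34 in Tc17, against 4.97 and 5.16 in CTL (lower, adjusted p = 0.00923, limma). Foxp3 of the same list read 4.14 and 4.23 in Tc17, against 3.59 on both CTL arrays (higher, adjusted p = 0.0078, limma). Cd4 itself read 3.28 and 2.83 in Tc17, against 3.21 and 2.92 in CTL, near the array median, and did not pass (adjusted p = 0.99, limma). Cd40lg was too dim to test. The erythroid gene Alas2 read 2.80 and 2.85 in Tc17, against 2.65 on both CTL arrays. The part of such cells in the differences was not tested.

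Limits on these counts concern the background set and near-identical genes. With all 35557 rows of the array tested in place of 14953 genes, 15 of the 36 genes were lower at the threshold, against 0.745% of all rows. The 11 that lost their call were Ifit1, Rsad2, Dhx58, Ifi35, Parp12, Parp14, Trim25, Zbp1, Herc6, Lgals3bp and Helz2, with adjusted p from 0.0529 (Herc6) to 0.296 (Lgals3bp). The Ifit, Oas, Mx and Trim30 families hold close copies, and their probe sets may take up signal from a relative.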

How the data were processed

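RNA from 4 CD8+ T cell cultures (2 Tc17, 2 CTL) was hybridised to Affymetrix whole-transcript arrays. The deposited values are log2 intensities made by the authors with RMA, which corrects background, quantile-normalises the arrays and summarises probes, and which would hide a shift common to all genes. The RMA version and the log base were not given in the sources used here; values from 1.18 to 13.70 were taken as log2. Detection calls were not used here, so the low end has no floor, dim probe sets compress differences, and the 2 arrays per group limit the precision. An exact permutation test of 2 against 2 cannot go below p = 0.333.

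Probe sets were named from the GEO platform annotation: of 35557 rows, 21789 named 1 gene, 1621 several and 12147 were not listed. Rows with several genes or none were left out, 1 probe set was kept per gene (highest mean), and the dimmest 25 percent of genes (mean under 2.59) were dropped, leaving 14953. Groups were compared with limma 3.58.1 in R 4.3.3 (lmFit and eBayes, two-sided, no block, Benjamini-Hochberg over all genes tested, threshold 0.05), checked on simulated data. Fold changes and differences are Tc17 over or minus CTL. Promoter sequences are from RefSeq, matched by symbol. Windows for Mx1, Mx2, Oas2, Usp18, Rtp4, Dhx58, Parp9, Parp14 and Zbp1 were not used here.

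The 40 genes and the other lists were chosen with earlier results of these data known. Named were all 40 genes, every signalling gene tested, the 3 largest decreases and increases past the threshold in the other interferon-induced and GTPase lists, the brightest gene of each cell type list and the label check genes. Alternatives changed the filter, moderation, normalisation, probe set choice, rows tested, replicate block and arrays included.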

Additional observations from a re-analysis of the deposited data

Results flagged for a closer look

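The spread between the arrays of a group ran in opposite senses over the interferon-stimulated genes. The median of replicate 2 minus replicate 1 over the 36 genes was 0.16 in Tc17 and -0.28 in CTL (log2). It drew attention because the groups' medians have opposite signs, with 1 array on each side. The replicate numbers have no stated link between the groups, so whether the signs are opposite or alike depends on how the arrays were numbered. The difference between the groups was not tested, and the cause was not tested.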

How the results depend on the processing

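None of the 26 lower genes changed sign under any of the 12 alternatives, and 15 of them were called in each alternative that tested them. Testing every row of the array gave 265 genes lower and 419 higher over the whole table, against 1113 and 1229, and 15 of the 36 interferon-stimulated genes lower, against 26; the cause was not tested. A filter at the median of all genes left 27 of the 36 genes to test, with a median difference of -1.04, against -0.91. Leaving out 1 array in turn gave 587 (without Tc17 replicate 2) to 976 genes lower over the whole table, with 650 without CTL replicate 1, and 834 to 948 higher. In the 36 genes it gave 24 to 27 lower and 0 to 1 higher, with medians from -0.96 to -0.84; the lone array left in a group was assumed to vary like the other group. At a difference of 1 in place of 0.5, 0 of the 36 genes were above in Tc17 replicate 2, against 8, and 0 below in CTL replicate 2, against 4. Without the filter Lgals3bp lost its call (adjusted p = 0.0582), as it did under cyclic loess (adjusted p = 0.093). Centring each array on its median, averaging probe sets and trended moderation changed no call among the 36 genes.

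With the replicate number as a block, 1109 genes were lower and 1213 higher over the whole table, and 26 of the 36 genes were lower and 0 higher, with a median of -0.91; no call among the 36 changed. The replicate differences of the groups correlated at r = 0.02 over all genes tested. That does not settle whether arrays with the same number share an origin, which the labels do not give.

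Genes that did not pass could change sign when 1 array was left out, as 6 of the 36 did. Their differences without 1 array ran from -0.28 to 0.25 for Oas1a, -0.43 to 0.35 for Ddx58, -0.22 to 0.20 for Trim21, -0.18 to 0.01 for Ddx60, -0.23 to 0.22 for Ifit3 and -0.15 to 0.28 for Parp9. The same held for 16 genes of the other lists, none of them past the threshold. The signalling genes ran from -0.23 to 0.30 (Tyk2, also -0.01 under cyclic loess), -0.18 to 0.19 (Ifne), -0.05 to 0.15 (Ifnar1), -0.18 to 0.20 (Irf9), -0.20 to 0.26 (Mavs), -0.03 to 0.26 (Irf3) and -0.02 to 0.23 (Tbk1). The other interferon-induced genes ran from -0.51 to 0.08 (Tap1), -0.10 to 0.13 (Pml), -0.35 to 0.04 (Tor3a), -1.05 to 0.04 (Ifitm3), -0.12 to 0.20 (Trim34a) and -0.34 to 0.06 (Phf11d), and the GTPases from -0.25 to 0.15 (Gbp8), -0.70 to 0.12 (Irgm1) and -2.03 to 0.12 (Iigp1).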
